A study of Homo sapiens with 6 samples.

Results

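A set of 10 immediate early genes, among them subunits of the transcription factor AP-1, was examined for occupancy by PRMT5 and METTL3 in PC3 and LNCaP cells. The genes were DUSP1, CCN1, IER2, JUNB, JUN, FOS, FOSL1, EGR1, EGR2 and ATF3, of 20033 protein-coding genes in the RefSeq table used. They were selected on earlier peak calls from the same lists, in which DUSP1, CCN1, IER2 and JUNB had a PC3 PRMT5 peak near a gene end, together with well-known genes of the same response. A gene was given each entry, that is each peak of a list, whose summit lay inside it or within 3 kb of its start or end on hg38. The 4 lists were PRMT5 in PC3, PRMT5 in LNCaP, METTL3 in PC3 and METTL3 in LNCaP. PC3 is an established, androgen-independent human prostate cancer line and LNCaP an established, androgen-responsive one. Both were grown in RPMI-1640 with 8% fetal bovine serum, no treatment is named in the labels, and each of the 6 libraries used 100000 cells and 16 PCR cycles. Each antibody was used once per line, and peaks were called against 1 control library of the same line, titled IgG and described as a secondary antibody. With 1 library per group there is no spread between replicates and no test was run. The values below describe these lists and not the lines at large.

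Immediate early genes are transcribed within minutes of a growth factor, serum or stress signal, without new protein synthesis. Mitogen-activated protein kinases relay the signal to factors already on the DNA, such as serum response factor at CArG boxes and CREB-family proteins at cyclic AMP response elements (CRE). Proteins of the Fos and Jun families then pair through leucine zippers to form AP-1, which binds the next genes of the response, and phosphatases such as DUSP1 end the signal. PRMT5 places symmetric dimethyl marks on arginines of histones and other proteins, and METTL3 carries the catalytic site of the complex that makes N6-methyladenosine in RNA.

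The start of DUSP1 was the place among the 10 genes where both lines had an entry. Its promoter is shown from 250 bases before to 50 bases after the start (RefSeq, GRCh38.p14, the primary coordinates of hg38), at chr5:172771146-172771445 on the minus strand. Capitals mark the 124 bases covered by the LNCaP PRMT5 entry, all of which the PC3 PRMT5 entry also covers.
DUSP1: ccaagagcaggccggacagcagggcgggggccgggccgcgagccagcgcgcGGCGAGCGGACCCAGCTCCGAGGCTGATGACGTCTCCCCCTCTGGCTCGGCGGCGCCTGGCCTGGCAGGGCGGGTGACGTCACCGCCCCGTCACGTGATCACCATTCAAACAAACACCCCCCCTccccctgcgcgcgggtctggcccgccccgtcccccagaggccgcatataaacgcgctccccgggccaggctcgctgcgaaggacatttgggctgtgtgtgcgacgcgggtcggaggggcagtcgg
CXCL8 encodes the chemokine interleukin-8, an AP-1 target, and belongs to a wider list described further on. It is shown because a PC3 PRMT5 entry also crosses its start, at chr4:73740319-73740618 on the plus strand. Capitals mark the 98 bases that entry covers. The TATAAA match of this promoter lies inside the entry. Its TGACTCA match, an AP-1 site, lies outside the entry, with its centre 220 bp from the summit.
CXCL8: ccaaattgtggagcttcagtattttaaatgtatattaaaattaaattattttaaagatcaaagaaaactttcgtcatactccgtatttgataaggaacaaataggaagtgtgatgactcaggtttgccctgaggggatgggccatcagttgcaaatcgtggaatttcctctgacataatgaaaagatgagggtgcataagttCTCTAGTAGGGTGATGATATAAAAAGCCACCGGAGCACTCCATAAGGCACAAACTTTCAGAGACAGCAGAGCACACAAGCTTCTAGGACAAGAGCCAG
EGR1 and FOS, the best known serum-induced factors of the set, are shown as promoters that no entry touched, at chr5:138465229-138465528 and chr14:75278578-75278877, both on the plus strand. Capitals mark CArG boxes in EGR1 and a TATAAA match in FOS. CArG boxes outside the stretches shown were not sought.
EGR1: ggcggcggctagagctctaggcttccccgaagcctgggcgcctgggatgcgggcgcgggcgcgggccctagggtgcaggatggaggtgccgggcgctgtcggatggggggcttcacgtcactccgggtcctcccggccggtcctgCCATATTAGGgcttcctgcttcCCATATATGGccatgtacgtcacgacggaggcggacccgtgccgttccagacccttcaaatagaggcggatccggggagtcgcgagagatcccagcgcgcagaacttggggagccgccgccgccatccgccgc
FOS: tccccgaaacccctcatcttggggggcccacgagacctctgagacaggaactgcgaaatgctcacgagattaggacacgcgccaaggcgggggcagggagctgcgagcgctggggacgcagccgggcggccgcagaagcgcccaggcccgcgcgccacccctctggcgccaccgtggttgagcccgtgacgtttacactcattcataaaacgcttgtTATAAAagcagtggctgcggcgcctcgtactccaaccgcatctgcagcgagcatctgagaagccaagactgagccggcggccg

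PRMT5 entries lay at 4 of the 10 genes in PC3 and at 1 in LNCaP. In the PC3 list the genes were DUSP1, CCN1, IER2 and JUNB, and in the LNCaP list DUSP1. By the same rule 4.59% of all protein-coding genes had an entry in PC3 PRMT5 and 3.08% in LNCaP PRMT5. CCN1, IER2 and JUNB had one in PC3 and none in LNCaP, a pattern found in 3.2% of all genes, and none of the 10 had the opposite pattern, found in 1.69%. DUSP1 had one in both lines, as did 1.39% of all genes. These calls chose the genes, so nothing is read from their height over the background. METTL3 entries lay at 2 genes in PC3, IER2 and EGR2, where 11.6% of all genes had one, and at none in LNCaP, where 0.389% did; 11.5% of all genes had one in PC3 and not in LNCaP and 0.225% the reverse. As 9 of the 10 genes are at most 10 kb long, the shares among the 5691 protein-coding genes of that size are also given: 3.11% (PC3) and 2.13% (LNCaP) for PRMT5, and 2.09% (PC3) and 0.105% (LNCaP) for METTL3. JUN, FOS, FOSL1, EGR1 and ATF3 had no entry in any list, as did 83.3% of all genes. The 2 lists of a line share 1 control library.

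**Figure D1:**
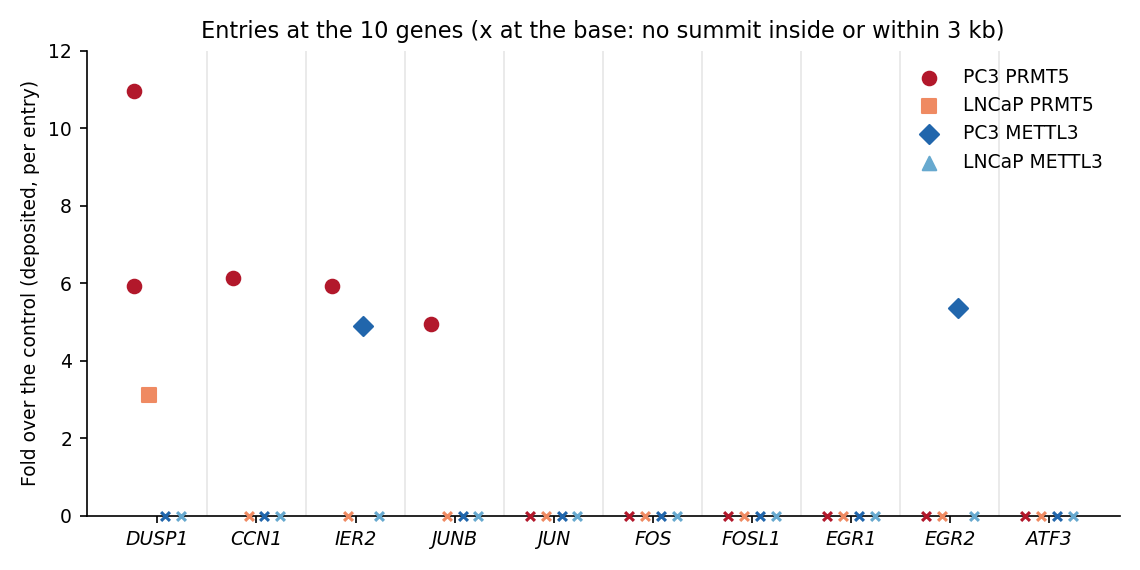
Fold over the control of each entry at the 10 genes, as deposited, on a linear axis, with 1 marker shape per list; a cross at the base marks a list with no entry inside the gene or within 3 kb. PC3 PRMT5 entries reached 10.97 at DUSP1 and lay between 4.93 and 6.14 at the others, and the LNCaP PRMT5 entry at DUSP1 had 3.11.

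DUSP1 encodes a nuclear dual-specificity phosphatase that dephosphorylates mitogen-activated protein kinases. It spans positions 172768096 to 172771195 of chromosome 5 on the minus strand. In the PC3 PRMT5 list an entry of 416 bp, positions 172771198 to 172771613, had a fold of 10.97 over the control and a −log10 q of 16.1. Its summit lay 132 bp upstream of the start. In the LNCaP PRMT5 list an entry of 124 bp, positions 172771271 to 172771394, had a fold of 3.11 and a −log10 q of 2.23, with its summit 91 bp upstream. The summits of the lines were 41 bp apart, and the shorter LNCaP entry lay wholly inside the PC3 one. PC3 had a second entry, of fold 5.92 and 231 bp, with its summit 2.29 kb upstream of the start, for which LNCaP had no counterpart within 10 kb of the gene. The nearest other protein-coding gene to these summits, ERGIC1, was 60.8 to 63.0 kb away.

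Within its own list the DUSP1 entry stood near the top in PC3 and near the bottom in LNCaP. It ranked 77 of 1661 by fold in PC3 PRMT5, where 95.4% of entries had a lower fold, and 931 of 980 in LNCaP PRMT5, where 4.90% did. Ranks in lists of unequal length do not measure a change between lines, and the LNCaP entry was lost when a fold of at least 5 or a −log10 q of at least 3 was asked for. No METTL3 entry lay near the gene: the nearest was 34.9 kb away in PC3, with a fold of 5.10, and 3.48 Mb away in LNCaP.

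**Figure D2:**
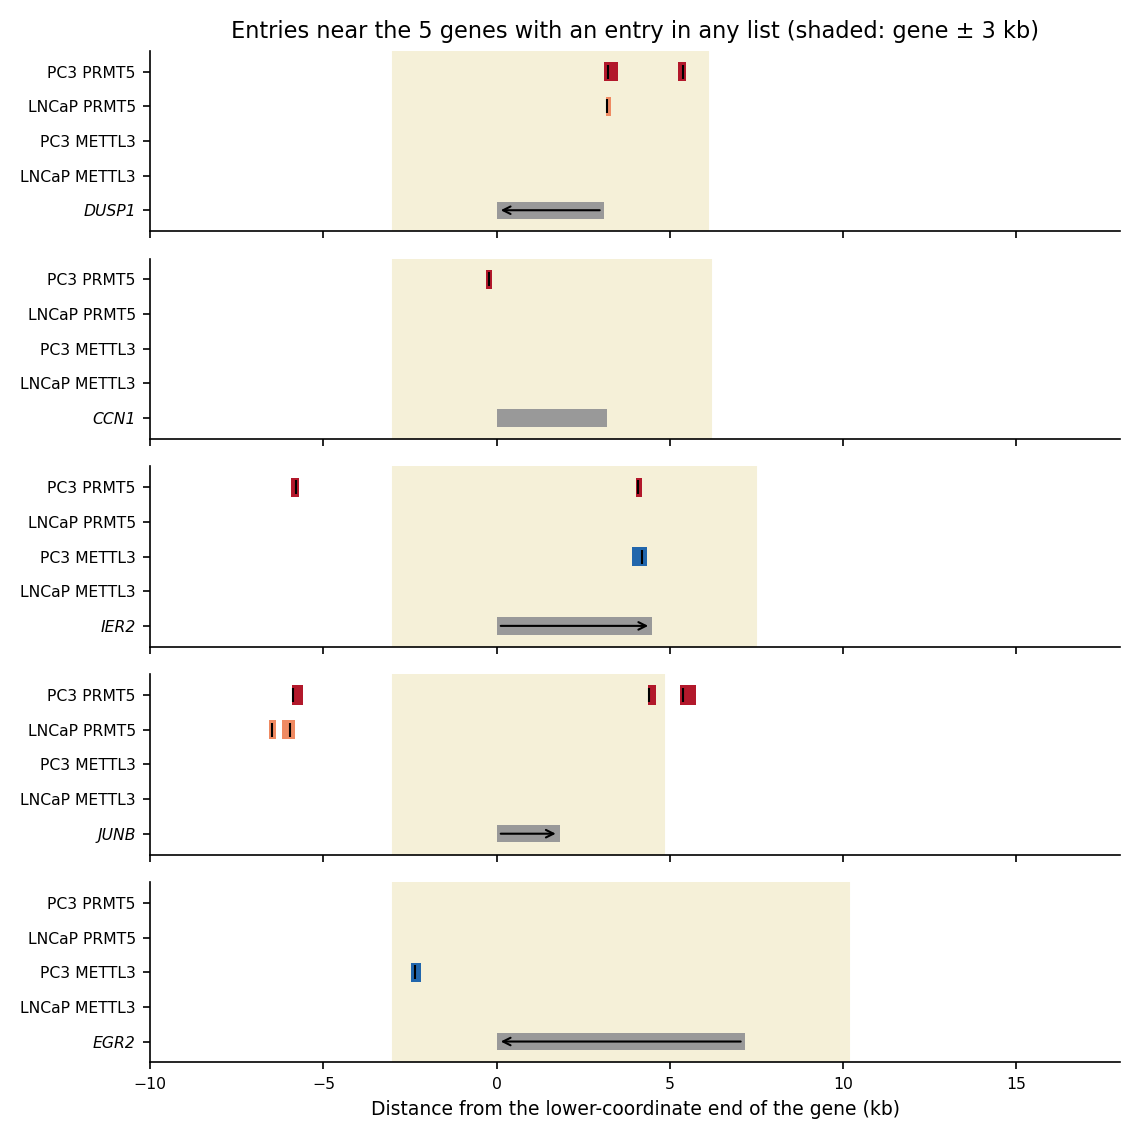
Entries within 10 kb of the 5 genes that had an entry in any list, in kb from the lower-coordinate end of each gene; grey bars are genes with an arrow in the direction of transcription where the table used gives it, coloured bars are entries, black ticks summits, and the shading is the gene with 3 kb on both sides. Entries of both lines coincide at the DUSP1 start and 5.88 to 5.96 kb below JUNB, and PRMT5 and METTL3 entries of PC3 coincide at the upper end of IER2.

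CCN1 encodes a secreted matrix-associated protein that binds integrins and was first known as CYR61. It spans positions 85580761 to 85583950 of chromosome 1. The PC3 PRMT5 list held an entry of 164 bp at positions 85580455 to 85580618, with a fold of 6.14 and a −log10 q of 3.88. Its summit lay 220 bp outside the lower end of the gene and 2.34 kb from DDAH1, which falls within 3 kb of the same entry. No LNCaP PRMT5 entry lay nearer than 2.87 Mb, and 72.5% of protein-coding genes had a nearer one. The nearest METTL3 entries were 209 kb away in PC3 and 5.59 Mb away in LNCaP.

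IER2 encodes a small nuclear protein induced early by growth factors. It spans positions 13150411 to 13154911 of chromosome 19 on the plus strand. In PC3 a PRMT5 entry and a METTL3 entry coincided near its 3′ end. The PRMT5 entry, positions 13154438 to 13154601, had a fold of 5.92 and lay 406 bp before the end of the gene. The METTL3 entry, positions 13154335 to 13154754, had a fold of 4.88, and its summit was 112 bp from the PRMT5 summit. All 164 bp of the PRMT5 entry lay inside the METTL3 entry. The calls rest on 1 shared control, so they are not independent, and 0.963% of all genes had an entry of both PC3 lists. Whether these positions are exonic was not determined, since the gene table used gives no exons. Neither list had an entry at the IER2 start: both summits lay more than 4 kb from it, at 4.09 kb for PRMT5 and 4.21 kb for METTL3. Another PC3 PRMT5 entry, of fold 6.77, lay 5.80 kb upstream, inside STX10. The nearest LNCaP PRMT5 entry was 205 kb away, and chromosome 19 held no LNCaP METTL3 entry.

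Among the Jun genes, JUNB had an entry within 3 kb in PC3, but that entry stood closer to another gene. JUNB encodes a Jun subunit that tempers AP-1 activity in many settings, and it spans positions 12791486 to 12793315 of chromosome 19 on the plus strand. The PC3 PRMT5 entry, positions 12795860 to 12796100, had a fold of 4.93 and a −log10 q of 2.65. Its summit lay 2.57 kb beyond the end of JUNB and 0.941 kb from PRDX2, a peroxiredoxin gene. A second PC3 PRMT5 entry, of fold 6.20, lay just past the 3 kb limit, 3.55 kb beyond JUNB and inside PRDX2. On the other side of JUNB both lines had PRMT5 entries inside HOOK2, a gene of a microtubule linker protein. The PC3 entry there, positions 12785574 to 12785882, had a fold of 3.34 and lay 5.88 kb upstream of JUNB. The LNCaP entry, positions 12785296 to 12785673, had a fold of 6.67, lay 5.96 kb upstream and shared 100 bp with the PC3 entry. A further LNCaP entry, of fold 7.24, lay 6.47 kb upstream. With a window of 10 kb JUNB therefore counted in both lines, and with 1 kb in neither. Of protein-coding genes, 3.48% had a nearer LNCaP PRMT5 entry than JUNB and 4.50% a nearer PC3 PRMT5 entry. The nearest PC3 METTL3 entry was 227 kb away.

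JUN, the founding Jun subunit, had no entry near it in either PRMT5 list. The nearest were 3.11 Mb away in PC3 and 6.41 Mb away in LNCaP, and 76.8% and 87.8% of protein-coding genes had a nearer one in those lists. A PC3 METTL3 entry of fold 3.36 lay 17.5 kb downstream of the gene, and the nearest LNCaP METTL3 entry was 15.2 Mb away.

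FOS, the founding Fos subunit, was nearer to a LNCaP entry than to a PC3 entry for PRMT5. The LNCaP entry, positions 75258896 to 75259184 of chromosome 14, had a fold of 6.43 and lay 19.7 kb upstream of the start. In PC3 the nearest PRMT5 entry was 1.67 Mb away. Of protein-coding genes, 5.12% had a nearer PRMT5 entry in LNCaP and 65.7% in PC3. The nearest PC3 METTL3 entry, 185 kb away with a fold of 4.10, lay inside JDP2, which encodes an AP-1 repressor of the Jun dimerization protein family.

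FOSL1, which encodes the Fos-related subunit Fra-1, had a PC3 PRMT5 entry 57.4 kb away, of fold 8.53, inside SNX32. Its nearest LNCaP PRMT5 entry was 175 kb away, and its nearest METTL3 entries 122 kb away in PC3 and 3.60 Mb away in LNCaP. ATF3, a stress-induced bZIP factor that pairs with Jun proteins, is the longest of the 10 genes, at 55.4 kb, and had no entry in its body. The nearest PRMT5 entries were 2.49 Mb away in PC3 and 8.37 Mb away in LNCaP, and the nearest METTL3 entries 241 kb and 8.37 Mb away in the same lines.

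The EGR genes encode zinc-finger factors that bind GC-rich sites, and their nearest entries came from PC3. EGR2 had a METTL3 entry in PC3 at positions 62809529 to 62809820 of chromosome 10, with a fold of 5.35 and a −log10 q of 5.64. Its width, 292 bp, is both the smallest and the median width of that list. The summit lay 2.36 kb beyond the 3′ end of EGR2 and 1.15 kb from ADO, a thiol dioxygenase gene. A PC3 PRMT5 entry of fold 6.002 lay 13.2 kb upstream of EGR2, whereas the nearest LNCaP PRMT5 entry was 2.63 Mb away. For EGR1 a PC3 METTL3 entry of fold 5.92 lay 10.9 kb downstream of the gene. Its nearest PRMT5 entries were at similar distances in the lines, 982 kb in PC3 and 905 kb in LNCaP.

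**Figure D3:**
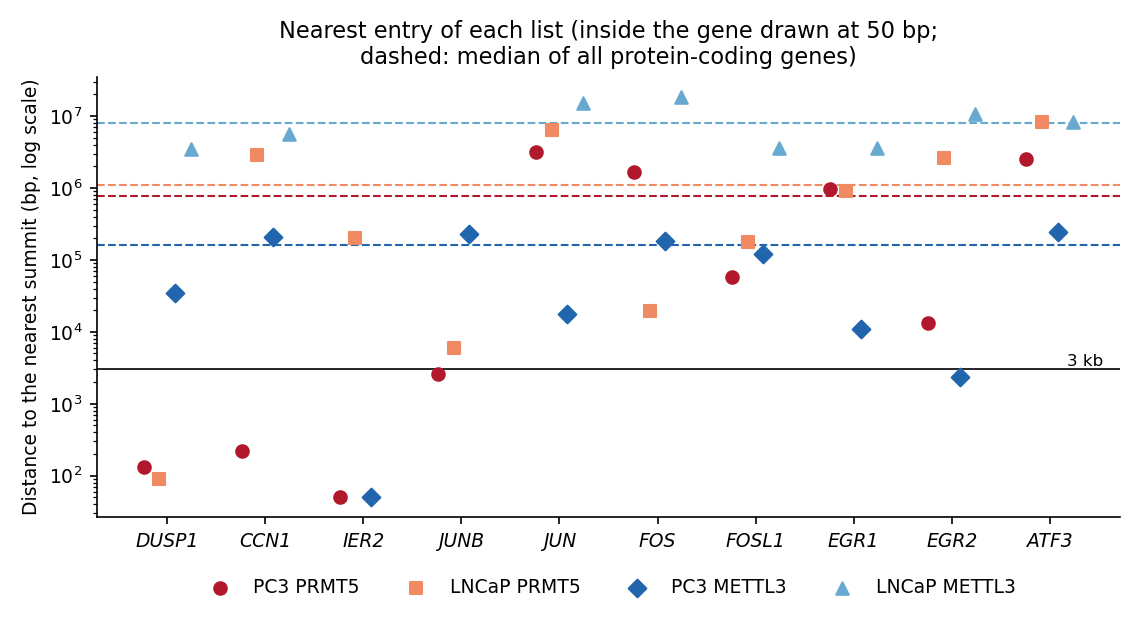
Distance in bp, on a log axis, from each gene to the nearest summit of each list; an entry inside the gene is drawn at 50 bp, the solid line is 3 kb, and dashed lines are the medians over all protein-coding genes. The PC3 PRMT5 points of DUSP1, CCN1, IER2 and JUNB, genes chosen for such entries, lie under the 3 kb line. The LNCaP METTL3 list has no point for IER2 and JUNB because it holds no entry on their chromosome.

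Over the 10 genes the median distance to the nearest PRMT5 entry was 35.3 kb in PC3 and 555 kb in LNCaP, beside medians of 772 kb and 1108 kb over all protein-coding genes in these lists. DUSP1, CCN1, IER2 and JUNB were chosen for a PC3 PRMT5 peak near a gene end. That choice lowers the PC3 PRMT5 median, so nothing is read from its distance to the other medians. For METTL3 it was 78.6 kb in PC3 and 6977 kb in LNCaP, the second over the 8 genes on chromosomes with an entry, beside 163 kb and 8081 kb. Within 100 kb, 6 of the 10 genes had a PC3 PRMT5 entry and 3 a LNCaP PRMT5 entry, where 18.5% and 12.7% of all genes did. The 6 include DUSP1, CCN1, IER2 and JUNB, so this PC3 count is also raised by the choice of genes. For METTL3 at 100 kb the counts were 5 in PC3 and 0 in LNCaP, beside 38.3% and 1.51% of all genes. At the 3 kb limit the entries just inside were those of JUNB at 2.57 kb (PC3 PRMT5) and EGR2 at 2.36 kb (PC3 METTL3), and the nearest entry just outside was the PC3 PRMT5 entry 3.55 kb beyond JUNB.

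Apart from the first DUSP1 entry, the entries at these genes were of middling or low height in their lists. Of the PC3 PRMT5 entries, 54.7% had a lower fold than the one at CCN1, 51.6% than the one at IER2, 51.3% than the second one at DUSP1 and 23.9% than the one at JUNB. In the PC3 METTL3 list 60.6% had a lower fold than the EGR2 entry and 38.4% than the IER2 entry. The lists are of different lengths, 1661 (PC3) and 980 (LNCaP) entries with the PRMT5 antibody and 7453 (PC3) and 173 (LNCaP) with the METTL3 antibody, and the reads behind them are unknown. When each list was reduced to 173 entries of lowest q, DUSP1 in PC3 PRMT5 was the one call left among the 10 genes.

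**Figure D4:**
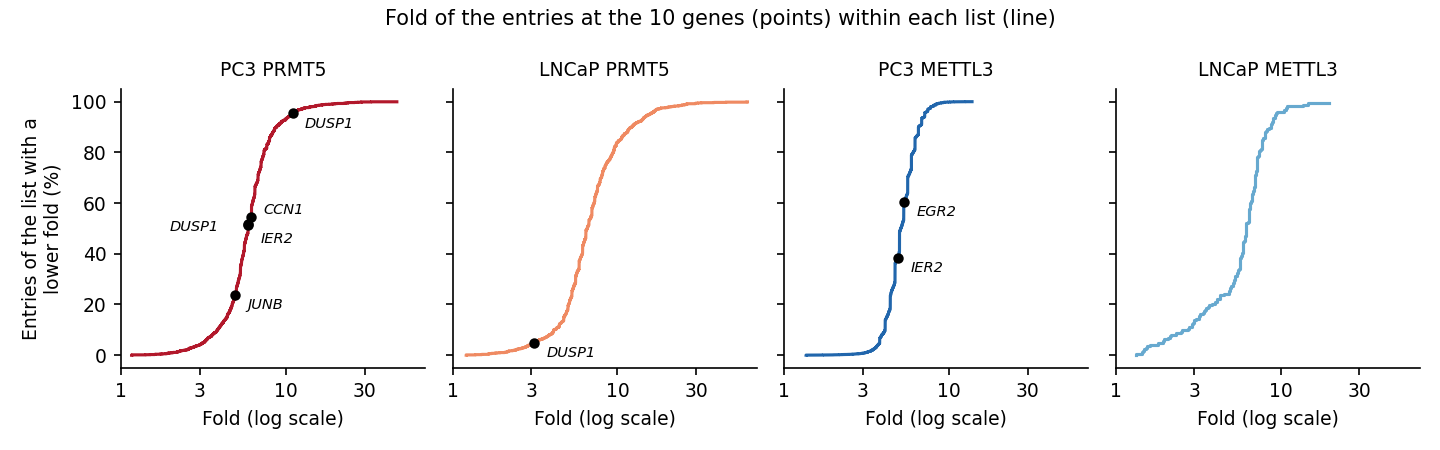
Share of a list's entries with a lower fold (percent) against fold on a log axis, 1 panel per list; lines are all entries of the list and points the entries at the 10 genes. The first DUSP1 entry of PC3 PRMT5 stands at 95.4% and the LNCaP PRMT5 entry of the same gene at 4.90%.

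The PRMT5 entries lay at different places on the genes whose strand the table used gives. DUSP1 had its entry of highest fold just before the start, IER2 inside the gene near the 3′ end, and JUNB beyond the 3′ end. The CCN1 entry lay just outside the lower-coordinate end of the gene. Of the 8 genes with a promoter in the RefSeq table, DUSP1 was the one with a PRMT5 entry within 3 kb of a start, in both lines. The PC3 entry covered 248 of the 300 promoter bases.

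A match to the CRE, TGACGTCA, was present in 1 of the 8 genes with a promoter sequence, DUSP1, where it lay 125 bases before the start and inside the PRMT5 entries of both lines. The PC3 summit was 10 bp and the LNCaP summit 30 bp from its centre. Matches were sought on both strands, each overlapping match counted, and different motifs could overlap. Only the bases from 250 before to 50 after each start were searched, so sites further away were not seen. Variant forms of the motifs were not counted, so a count of none does not show that a gene lacks such a site. The 8 genes have 11 promoters and are counted per gene, whereas the shares are per promoter, so the counts and shares are in unlike units. Of 22198 promoters of 15842 protein-coding genes in the table, 2.26% held the CRE. The AP-1 site TGACTCA was in none of the 8 genes and in 4.01% of promoters, and the EGR site GCGGGGGCG was in none and in 6.49%. A CArG box was in EGR1, which held a pair of them 105 and 83 bases before the start, and in 1 of the 3 EGR2 promoters, and in 1.25% of promoters. TATAAA was in DUSP1, JUNB, FOS and ATF3, and in 9.47% of promoters. In DUSP1, JUNB and FOS it began 30, 31 and 33 bases before the start. The Sp/KLF site GGGCGG was in 6 of the 8 genes, among them DUSP1 with 4 matches and IER2 with 4, and in 56.3% of promoters. The GC content was 73.3% in the DUSP1 promoter, 71.0% in JUNB, 69.7% in IER2, 69.3% in EGR1, 64.7% in FOS and 62.0% in JUN, beside a median of 62.3% over the promoters of the table. The EGR2 promoters had 54.7% to 77.3% and the ATF3 promoters 46.3% and 48.0%. A match is a run of letters and was not tested as a binding site.

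The wider response was covered by 98 related genes in 4 lists drawn up by role. They were drawn up with earlier results of these data known, so their shares are not an unbiased comparison. PRMT5 entries lay at 6 of them in PC3, 6.12% beside 4.59% of all genes, and at 0 in LNCaP, beside 3.08%. METTL3 entries lay at 8 in PC3, 8.16% beside 11.6%, and at 1 in LNCaP, 1.02% beside 0.389%. The PC3 shares are near those of all genes, and the LNCaP shares rest on 0 and 1 genes. Of the 98 genes 52 are at most 10 kb long, a size at which 3.11% had a PC3 PRMT5 and 2.09% a PC3 METTL3 entry. No share was tested. No entry in any list lay at 85 of the 98, as at 83.3% of all genes.

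**Figure D5:**
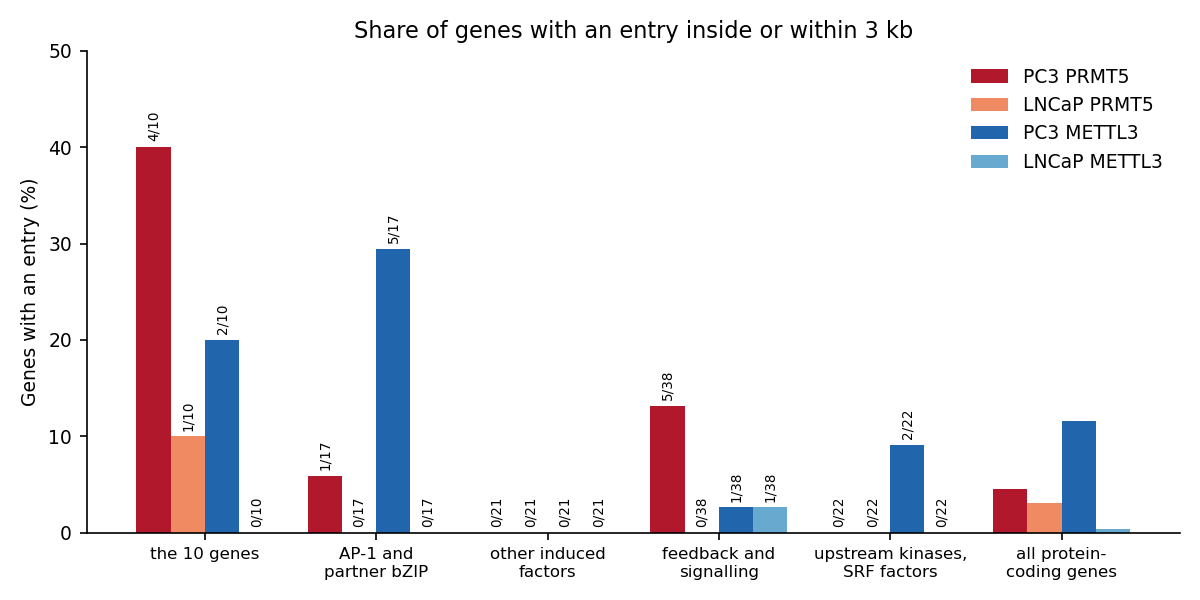
Percent of genes with an entry inside or within 3 kb, for the 10 genes, the 4 wider lists and all protein-coding genes, with counts above the bars and 1 colour per list. PC3 PRMT5 has 5 of 38 feedback and signalling genes, LNCaP PRMT5 none of the 98 wider genes, and 21 other induced transcription factors have no entry in any list. Of all genes 4.59% have a PC3 PRMT5 entry, 3.08% a LNCaP PRMT5 entry and 83.3% none in any list.

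Most of the PC3 PRMT5 entries of the wider lists were at induced feedback and signalling genes, 5 of 38, or 13.2%, beside 4.59% of all genes and 3.11% of those of at most 10 kb, a size that 28 of the 38 have. The list is small, was drawn up with earlier results of these data known, and was not tested. PPP1R15A, which encodes the stress-induced phosphatase subunit GADD34, had a fold of 15.3 in an entry of 1262 bp inside the gene, ranked 27 of 1661. The entry was 2.88 kb from the start and 0.759 kb before the end. CXCL8 had a fold of 7.36 with the summit 86 bp inside its start. NFKBIA, which encodes an inhibitor of NF-κB, had entries of fold 6.29 and 5.74, both inside the gene and 456 bp apart. ZFP36L1, an RNA-binding protein that promotes decay of AU-rich mRNAs, had a fold of 5.00 at 0.884 kb from a start, and ERRFI1, a feedback inhibitor of the EGF receptor, had 4.88 at 0.668 kb. None of these had a LNCaP PRMT5 entry by the same rule. NFKBIA also had a PC3 METTL3 entry of fold 4.62, 2.40 kb outside its lower end and more than 4 kb from its PRMT5 summits. TRIB1, which encodes a pseudokinase, carried the LNCaP METTL3 entries of the wider lists, with folds of 7.42 and 5.54 at summits 3.03 kb apart, both inside the gene.

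Among the 17 AP-1 and partner bZIP genes, CREM, which encodes a CRE-binding factor, had PC3 entries of both antibodies. Its PRMT5 entry, of fold 8.60 and 33.4 kb from the nearest gene end, shared 269 bp with a METTL3 entry of fold 8.46, and 2 more METTL3 entries lay within CREM with folds of 6.06 and 5.77. The summit of the last lay 138 bp from one of the CREM starts in the promoter table, and the entry covered all 300 bases of that promoter. METTL3 entries also lay at ATF2 (fold 5.61), CREB1 (5.31), BATF2 (4.70) and the JDP2 entry already given, so 5 of the 17 had one, or 29.4%, beside 11.6% of all genes. Only 5 of the 17 are at most 10 kb long, and with entries near a gene end alone the count was 2. FOSB, FOSL2, JUND and the other 9 bZIP genes had none in any list, as did 83.3% of all genes. With a window of 5 kb FOSB gained a PC3 PRMT5 entry. Of 22 upstream kinases and serum response factors, 2 had a PC3 METTL3 entry, or 9.09%, beside 11.6% of all genes. BRAF had a METTL3 entry of fold 7.13. RPS6KA5, a kinase that phosphorylates CREB and histone H3, had METTL3 entries of fold 4.57 and 5.21. All were in PC3 and more than 20 kb from a gene end. With entries within 3 kb of a gene end alone, PC3 METTL3 counted 3 of the 98 genes, beside 2.48% of all genes by that rule. The 21 other induced transcription factors, which take in EGR3, MYC and the NR4A and KLF genes, had no entry in any list, as did 83.3% of all genes. Of these 21, 17 are at most 10 kb long.

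The protein-coding genes with values most like those of DUSP1 over the 4 lists were ELL, GTF2H1, HPS5, CACUL1 and GPIHBP1, by distance between log2 folds with a missing entry set to a fold of 1. ELL, a transcription elongation factor gene on chromosome 19, was the closest, with a fold of 11.5 in PC3 PRMT5 and 3.23 in LNCaP PRMT5 at a distance of 0.0901. GTF2H1 and HPS5 share their entries, of fold 10.8 in PC3 and 2.44 in LNCaP. CACUL1 had folds of 10.9 in PC3 and 4.11 in LNCaP, and GPIHBP1 7.62 in PC3 and 3.04 in LNCaP. None of the 5 had a METTL3 entry in either line, which the choice favours because DUSP1 had none. Likeness over 4 libraries is a description of these lists.

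Marker genes could not check the lines, since occupancy is no measure of expression. Of 8 mesenchymal and basal genes listed for PC3, AXL had a PC3 PRMT5 entry of fold 7.79, where 4.59% of all genes had one. Of 8 luminal genes listed for LNCaP, KLK2 had a PC3 METTL3 entry of fold 6.83, where 11.6% of all genes had one. No LNCaP entry lay at any of the 16 genes, where 3.08% of all genes had one with PRMT5 and 0.389% with METTL3.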

How the data were processed

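The series profiled PRMT5 and METTL3 in PC3 and LNCaP cells by in-situ ChIP, per the labels' protocols: protein G-Tn5, held at the antibody, cut and tagged nearby chromatin. The submitters' processing notes name MACS2 2.1.0, Bowtie 1.1.1, Trimmomatic 0.33, bcl2fastq 2.17, ChIPseeker and the build hg38, without settings. Per the peak names, each of the 4 deposited lists comes from a single library set against the same line's control. The score deposited by the authors is 10 times the −log10 q, within 1 unit. The authors' deposited fold is a ratio to the background that the control predicts, and each peak also has a deposited −log10 p and −log10 q; these served for description, ranking and filtering inside 1 list at a time. No q exceeded 0.0495. Depths are unknown, so no interval is given.

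Autosomal, X and Y entries were used. Genes came from the RefSeq table of GRCh38.p14, which gives no strand or exons; starts and strands came from the RefSeq promoter table, for 8 of the 10 genes. Assignment was tested on simulated data. The genes and lists were chosen with earlier results of these data known. The text names the 10 genes, every wider-list gene with a PRMT5 entry, up to 6 with a METTL3 entry per peak list by fold, neighbours within 3 kb of the same entry, and the 5 genes most like DUSP1; JDP2, STX10, HOOK2, SNX32, ERGIC1, and FOSB, FOSL2, JUND, EGR3, MYC and the NR4A and KLF genes were named outside that rule, after their values were seen. Alternatives changed the window, the gene ends counted, the thresholds and the list lengths. Work was done in Python 3.11.15 with pandas 2.3.3.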

Additional observations from a re-analysis of the deposited data

How the results depend on the processing

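The number of the 10 genes with a PC3 PRMT5 entry stayed at 3 or 4, beside 0 to 2 in LNCaP, with windows of 1, 5 and 10 kb, when either gene end had to be near, with any base of the entry counted, and at a fold of at least 5 or a −log10 q of at least 3. The share of all genes ran from 2.42% (either end) to 6.13% (10 kb) in PC3 PRMT5. In LNCaP PRMT5 it ran from 1.92% to 4.003% at the same settings. DUSP1, CCN1, IER2 and JUNB were chosen for these PC3 peaks, so the steady count is no support for them. A window of 1 kb left 1 gene with a PC3 METTL3 entry, beside 10.8% of all genes. A window of 10 kb gave 2 genes with a LNCaP PRMT5 entry, DUSP1 and JUNB, beside 4.003% of all genes, and 10 wider genes in PC3 PRMT5, beside 6.13%. With entries near either gene end alone, 3 wider genes had a PC3 METTL3 entry, beside 2.48% of all genes. Counted at transcription starts alone, where CCN1 and FOSL1 have no start in the table used, 1 gene had a PC3 PRMT5 entry, beside 1.38% of all 20033 genes with or without a start there, 0 had a PC3 METTL3 entry, beside 1.23%, and 0 had PRMT5 in PC3 and not in LNCaP; of the wider genes 2 had a PC3 METTL3 and 0 a LNCaP METTL3 entry. At a fold of at least 5 the counts were 0 genes for LNCaP PRMT5 and 1 for PC3 METTL3, and 5 wider genes for PC3 METTL3, beside 2.76% of all genes for LNCaP PRMT5 and 7.61% for PC3 METTL3. At a −log10 q of at least 3 LNCaP PRMT5 had 0, beside 2.58%. In lists of 173 entries 1 gene had PC3 PRMT5, 0 LNCaP PRMT5, 0 PC3 METTL3 and 1 PRMT5 in PC3 and not in LNCaP, with 1 wider gene for PC3 PRMT5 and 1 for PC3 METTL3, beside 0.634%, 0.519% and 0.349% of all genes for PC3 PRMT5, LNCaP PRMT5 and PC3 METTL3; fewer entries remain there by construction. The cause of the other shifts was not tested. No fold changed when the entry nearest to a gene end stood for a gene. No paired analysis was possible because each group has 1 library and no result comes from a test. Read depth is unknown, so the absence of an entry in LNCaP does not show an absence of binding.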
